A study of Homo sapiens with 6 samples.

Results

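Serpins and kallikreins are a family of protease inhibitors and a family of proteases that meet on epithelial surfaces. The members described here are all genes of the deposited expression table whose symbol is SERPIN with a clade letter from A to I and a number, or KLK with a number. They are 42 of 18249 genes, 29 serpins and 13 kallikreins. The cells are TE-10, a human line derived from an esophageal squamous carcinoma. Expression was measured in 2 libraries of cells in which METTL3 was stably knocked down by short hairpin RNA (titled sh1 and sh2, here knockdown 1 and knockdown 2) and in 1 library of control cells with normal METTL3. METTL3 is the enzyme that places N6-methyladenosine (m6A) on mRNA. A separate list gives m6A peaks of TE-10 cells with normal METTL3, from 2 immunoprecipitated libraries and 1 input library; no knockdown cells entered it. Neither the hairpin sequences, nor whether the lines are clones, nor whether the control carries a hairpin is given in the sources used here.

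A serpin inhibits a protease by offering it a loop as bait and then trapping it in an inactive complex, which uses the serpin up. Clade B serpins stay mostly inside the cell and are prominent in squamous epithelium, most other clades are secreted, and a few serpins no longer inhibit anything. Kallikreins are secreted serine proteases encoded side by side in a large cluster; in stratified epithelium several of them activate each other and cut the junctions that hold surface cells.

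METTL3 was at 8.35 in knockdown 1 and 4.99 in knockdown 2, against 20.81 in the control. The table's unit is not named, so every level below is a deposited expression value, and levels of different genes are not compared because it is not known whether they are per length. Depth cannot be read from the table. With 1 control, no permutation of the libraries can reach a p of 0.05. The labels do not say that libraries were grown separately, so any p reflects the spread of these libraries, which may be technical. The knockdown libraries are titled as different hairpins with 1 library each, so differences between hairpins and between libraries cannot be told apart. Knockdown 2 stood apart from both other libraries. A list of 9 kidney and HeLa-type markers, some chosen because they were known to be high there, summed to 16.8 in knockdown 1 and 245 in knockdown 2, against 13.9 in the control. All 9 are in the table, 6 of them at 1 or more in a library and none at 0 throughout, with CDKN2A, a cell cycle inhibitor, at 0, 144.68 and 0.04 in that order, HOXB9 at 0.35, 53.12 and 0.03, and IRS4 at 0.04, 23.56 and 0.05. These 3 make up most of the sum in knockdown 2. Of the rest of the list, PAX8 and GATA3 were lower there than in the control, at 3.66 against 4.11 and at 2.32 against 3.3. HOXD13 was higher there, at 16.07 against 6.38. So were PAX2 at 0.78 against 0.01, WT1 at 0.69 against 0.02 and LHX1 at 0.29 against 0, all under 1 in every library. Whether knockdown 2 holds other cells was not tested, and this limit holds for every value from that library, among them those of KLK10, SERPINB6, SERPINB7, SERPINE2 and SERPINF1. The 16 squamous markers, all at 1 or more, summed to 5217 and 3435 in the knockdown libraries and 5486 in the control, and the line thus carried the markers of its label. In bulk RNA, fewer cells of a type and less RNA per cell cannot be told apart.

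Of the 42 members, 18 were at 1 or more in at least 1 library, 16 serpins and 2 kallikreins, and these were tested. Values were compared as log2(value + 1), which understates differences of low genes. limma, with Benjamini-Hochberg adjustment over all 12375 genes at 1 or more, called no member and no gene (0% of the genes tested). The adjusted p of each of the 18 members was 0.99998. At an unadjusted p under 0.05 stood 162 genes in all, or 1.31%. The test has 1 residual degree of freedom. Its spread comes from the difference between the knockdown libraries, pulled toward a trend over all genes tested and lent to the single control. A printed SE is therefore not the gene's own spread, and all differences below are descriptions of 3 libraries.

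Members differed from the control in ways that the knockdown libraries did not share. In knockdown 1, 2 of 18 were at least 2-fold lower than the control, SERPINB3 and SERPINB4, beside 0.404% of all genes tested, and 0 were at least 2-fold higher, beside 0.242%. In knockdown 2, 2 were at least 2-fold lower, SERPINB7 and SERPINE2, beside 0.978%, and 3 were at least 2-fold higher, KLK10, SERPINB6 and SERPINF1, beside 3.64%. No member was at least 2-fold lower in both libraries (0.097% of all genes) or at least 2-fold higher in both (0.0323%). By sign alone 6 were lower in both libraries, beside 30.4% of genes, 5 were higher in both, beside 28%, and 7 had opposite signs, beside 40.6%. The median difference in log2(value + 1) over the 18 was -0.10 in knockdown 1 and 0.00 in knockdown 2, against -0.01 and 0.00 over all genes tested. These medians are taken over members that lay on both sides of the control.

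**Figure D1:**
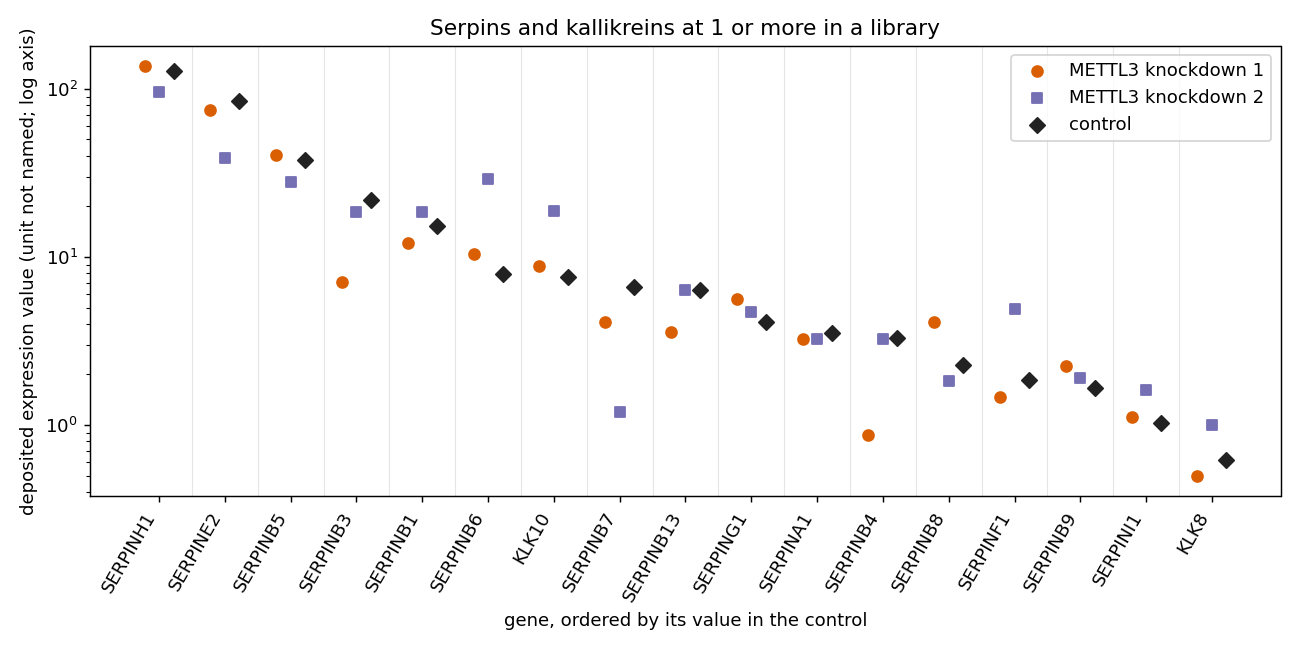
Deposited expression value (log axis, unit not named) of 17 members at 1 or more in a library, with 1 point per library: METTL3 knockdown 1 (circles), METTL3 knockdown 2 (squares) and control (diamonds). SERPINB3 and SERPINB4 are lowest in knockdown 1 at 7.06 and 0.87, and SERPINB7 is lowest in knockdown 2 at 1.19. SERPINB6 and KLK10 are highest in knockdown 2 at 29.17 and 18.8.

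Among the 18 tested members, the lowest difference from the control was that of a clade B serpin of chromosome 18 in each knockdown library, SERPINB3 in knockdown 1 and SERPINB7 in knockdown 2. SERPINB3 and SERPINB4, the squamous cell carcinoma antigens, are neighbouring near-identical copies; SERPINB3 inhibits lysosomal cysteine proteases such as cathepsin L, and SERPINB4 inhibits cathepsin G and mast cell chymase. SERPINB3 was at 7.06 in knockdown 1 and 18.54 in knockdown 2, against 21.79 in the control. SERPINB4 was at 0.87 in knockdown 1 and 3.27 in knockdown 2, against 3.28 in the control. Both were lowest in knockdown 1. In knockdown 2 SERPINB3 was lower than the control by less, and SERPINB4 was near the control. The difference in log2(value + 1) of SERPINB3 was -1.50 in knockdown 1, where 7 of 12375 genes were lower by more, and -0.22 in knockdown 2. For SERPINB4 these were -1.19, with 26 genes lower by more, and -0.003. limma gave -0.86 (SE 0.510) for SERPINB3 and -0.60 (SE 0.539) for SERPINB4. Reads shared by the copies could be assigned to either, so each single value is uncertain, although they were counted above as separate members. Their summed value was 7.93 in knockdown 1 and 21.81 in knockdown 2, against 25.07 in the control. Each copy runs in this order, so the order of the sum adds nothing to it.

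The bases before the annotated starts of this pair are shown because the copies differed from the control in the same library and because they show how alike the copies are. The 250 bases upstream (RefSeq, GRCh38.p14, minus strand of chromosome 18, 5′ to 3′) line up without gaps, and 247 are identical (98.8%). Capitals mark the 3 bases that differ. Counted from 1 at the 5′ end, with the SERPINB3 base first, these are G126A, G201A and C228T.
SERPINB3, chr18:63661894-63662143: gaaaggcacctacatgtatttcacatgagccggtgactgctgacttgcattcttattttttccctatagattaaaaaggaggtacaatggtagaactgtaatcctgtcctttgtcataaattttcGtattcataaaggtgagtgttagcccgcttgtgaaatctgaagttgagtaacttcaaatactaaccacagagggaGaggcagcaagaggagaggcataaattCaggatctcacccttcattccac
SERPINB4, chr18:63644257-63644506: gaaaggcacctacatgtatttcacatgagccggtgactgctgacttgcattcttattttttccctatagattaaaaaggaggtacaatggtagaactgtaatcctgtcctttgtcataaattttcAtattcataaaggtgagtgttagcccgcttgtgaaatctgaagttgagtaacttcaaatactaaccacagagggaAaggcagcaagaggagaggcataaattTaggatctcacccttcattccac

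The other tested members on chromosome 18 followed no common course. SERPINB13, which inhibits cathepsins L and K in squamous cells, was at 3.58 in knockdown 1 and 6.36 in knockdown 2, against 6.32 in the control. Its log2 difference was -0.68 in knockdown 1, with 178 genes lower by more, and 0.01 in knockdown 2. Like SERPINB3 and SERPINB4, it was lowest in knockdown 1. The sign of its value in knockdown 2 turned under each of the 3 other scalings. SERPINB7, an epidermal serpin whose loss causes a palmoplantar keratosis, was at 4.08 in knockdown 1 and 1.19 in knockdown 2, against 6.66 in the control. It was lower in both libraries and lowest in knockdown 2, where its log2 difference was -1.81 and 8 of 12375 genes were lower by more, beside -0.59 in knockdown 1. limma gave -1.20 (SE 0.518). In knockdown 2 the squamous markers summed lowest and the kidney and HeLa-type markers highest, and the part of either in the value of SERPINB7 was not tested.

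SERPINB5, or maspin, is an epithelial serpin that does not inhibit proteases and was first described as a tumour suppressor of the breast. It was at 40.55 in knockdown 1 and 28.06 in knockdown 2, against 37.67 in the control. The control lay between the knockdown libraries, with log2 differences of 0.10 and -0.41 and a limma value of -0.15 (SE 0.301). SERPINB8, an inhibitor of furin, was at 4.08 in knockdown 1 and 1.83 in knockdown 2, against 2.28 in the control, and in knockdown 1 its log2 difference of 0.63 was exceeded by 167 genes. The cluster thus held, within knockdown 1, both a member among the genes lowest against the control and one toward the high end. SERPINB2, an inhibitor of plasminogen activators, was at 0.27 and 0.53 in the knockdown libraries and 0.44 in the control, and SERPINB10, SERPINB11 and SERPINB12 were also under 1 in every library.

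**Figure D2:**
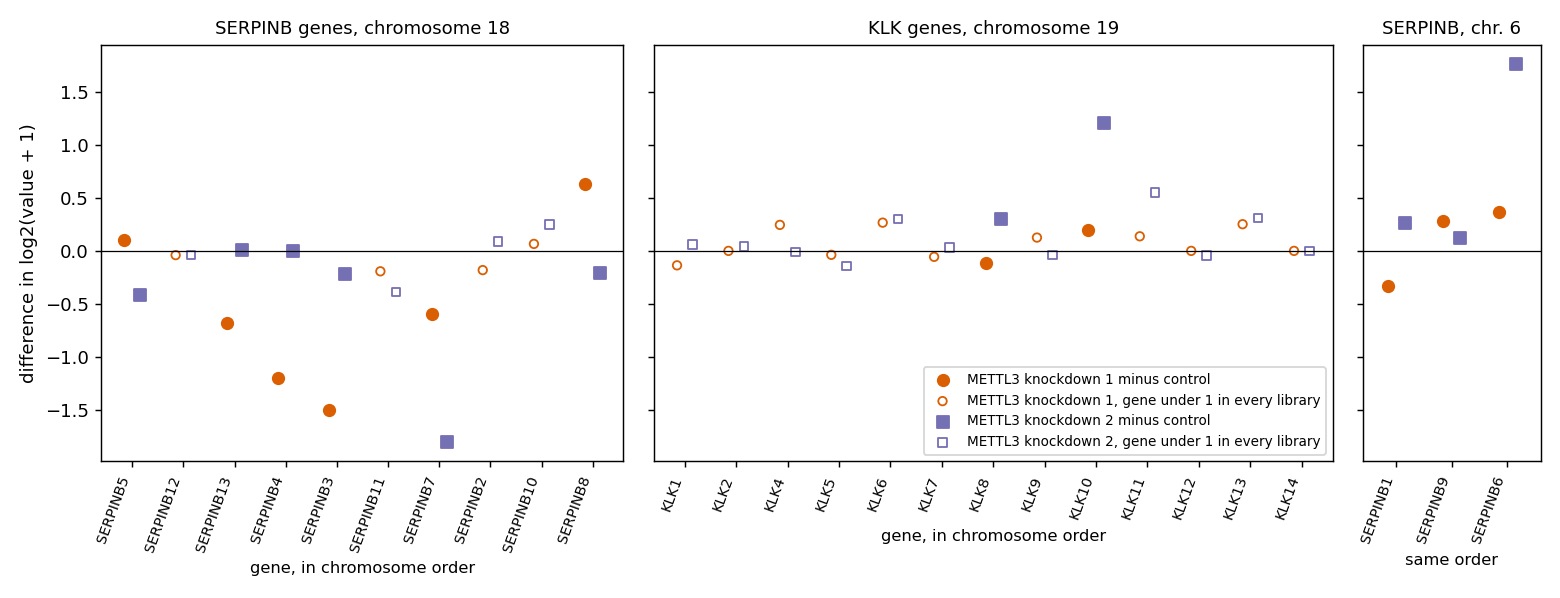
Difference in log2(value + 1) from the control for METTL3 knockdown 1 (circles) and METTL3 knockdown 2 (squares), with genes in their order along chromosomes 18, 19 and 6; open symbols are genes under 1 in every library. In knockdown 1 the neighbours SERPINB13, SERPINB4 and SERPINB3 lie at -0.68, -1.19 and -1.50, while in knockdown 2 SERPINB7 lies at -1.81, KLK10 at 1.20 and SERPINB6 at 1.77.

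Promoter windows were available for 14 of the 18 tested members; SERPING1, SERPINF1 and KLK8 are among those without. The letters TGANTCA, whose reverse complement is the same pattern, were searched in the 250 bases before each start. They were chosen because AP-1 is a textbook regulator of squamous genes. This pattern is looser than the AP-1 core, which has C or G at N, and the only match of SERPINB5 has A there. The letters TGANTCA occurred in 5 of 23 windows of the 14 members, against 6.57% of the 35116 windows of the whole table. The 4 genes that hold them, SERPINB5, SERPINB7, SERPINB8 and SERPINB13, all lie on chromosome 18, and the windows of SERPINB3 and SERPINB4 hold none. A GC box (GGGCGG, both strands) was in 10 of the 23 windows, against 42.6% of all windows, and a TATA box (TATAAA, both strands) in 3, against 10.7%. The matches, in capitals within flanks of 12 bases, are from the plus strand of chromosome 18 in GRCh38.p14 (RefSeq), and the windows of 2 alternative starts of SERPINB7 and the window of SERPINB8 hold 2 each.
SERPINB5, chr18:63476800-63476830: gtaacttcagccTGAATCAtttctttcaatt
SERPINB7, chr18:63775252-63775282: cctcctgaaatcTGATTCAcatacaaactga
SERPINB7, chr18:63775367-63775397: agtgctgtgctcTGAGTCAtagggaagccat
SERPINB7, chr18:63777563-63777593: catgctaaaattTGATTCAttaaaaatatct
SERPINB7, chr18:63777724-63777754: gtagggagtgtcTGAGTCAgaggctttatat
SERPINB8, chr18:63969884-63969914: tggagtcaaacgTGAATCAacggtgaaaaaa
SERPINB8, chr18:63970041-63970071: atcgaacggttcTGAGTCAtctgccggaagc
SERPINB13, chr18:63587244-63587274: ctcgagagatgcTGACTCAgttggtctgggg
These genes did not share a course: in knockdown 1 SERPINB13 and SERPINB7 were lower than the control and SERPINB8 and SERPINB5 higher. A match is a string of letters and not a site shown to be bound.

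The clade B serpins of chromosome 6 were SERPINB1, SERPINB6 and SERPINB9. SERPINB6, which inhibits cathepsin G and trypsin-like proteases in the cytosol, was at 10.41 in knockdown 1 and 29.17 in knockdown 2, against 7.87 in the control. It was higher in both libraries, by 0.36 and 1.77 on the log2(value + 1) scale, and 137 genes were higher by more in knockdown 2. limma gave 1.06 (SE 0.550). The value of 29.17 is from the library with CDKN2A at 144.68, and the part of that difference in it was not tested. SERPINB1, an inhibitor of neutrophil elastase and proteinase 3, was at 12.04 in knockdown 1 and 18.6 in knockdown 2, against 15.37 in the control. The control lay between the knockdown libraries, and limma gave -0.03 (SE 0.313). SERPINB9, which protects cells from granzyme B, was at 2.23 in knockdown 1 and 1.9 in knockdown 2, against 1.66 in the control; it was higher in both, although its sign in knockdown 2 turned under quantile normalization. SERPINB9 is also made by cytotoxic lymphocytes; 6 blood cell markers summed to 1.2 and 1.5 in the knockdown libraries and 0.98 in the control, and none of them reached 1 in any library.

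Of the secreted inhibitors of plasminogen activators, SERPINE2 was lower than the control in both knockdown libraries and SERPINI1 was higher in both. SERPINE2, or protease nexin-1, which inhibits thrombin and urokinase at the cell surface, was at 74.6 in knockdown 1 and 38.66 in knockdown 2, against 84.52 in the control. It was lower in both, but by -0.18 in knockdown 1 and by -1.11 in knockdown 2, where 88 genes were lower by more; limma gave -0.64 (SE 0.411). SERPINI1, or neuroserpin, which inhibits tissue plasminogen activator in neurons, was at 1.11 and 1.61 in the knockdown libraries and 1.03 in the control. Neural markers summed to 45.7 and 39.1 in the knockdown libraries and 45.9 in the control, with 3 of 6 under 1 in every library; most of the sum is TUBB3, at 44.39, 29.36 and 45.1 in that order. SYP, at 1.17 and 6.34 against 0.63 in the control, and STMN2, at 0 and 2.84 against 0, were highest in knockdown 2, where SERPINI1 was highest too, and their part in it was not tested.

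The urokinase and plasmin system, in which these serpins act, was given by a list of activators, receptors, binding proteins and matrix metalloproteases, with 10 of its 15 genes tested; of the 10, PLAU and PLAT are proteases that these serpins inhibit. None was called by limma; 5 were lower in both libraries and 1 higher in both, beside 30.4% and 28% of all genes tested, with median log2 differences of -0.12 in knockdown 1 and -0.33 in knockdown 2, against -0.01 and 0.00 over all genes. The 2 genes named by the rule for lists, which takes the highest mean value over the libraries and is no comparison of levels per length, were ANXA2, which binds plasminogen at the cell surface, at 1623 in knockdown 1 and 1066 in knockdown 2 against 1278 in the control, and its partner S100A10, at 796 and 601 against 716. Chosen after their values were seen, PLAU (urokinase) was at 22.87 in knockdown 1 and 13.68 in knockdown 2, against 28.63 in the control, and PLAT (tissue plasminogen activator) at 8.21 and 10.06 against 13.99. PLAUR, the urokinase receptor, was at 12.56 and 10.02 against 14.32. SERPINE2 and these 3 genes were thus all lower in both knockdown libraries, which share 1 control. Of the other genes of the list, MMP13 was higher in both, at 3.14 and 3.41 against 2.32 in the control, and 4 had opposite signs.

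Serpins with other roles differed less or in 1 library. SERPINH1, or HSP47, is a chaperone of the endoplasmic reticulum that binds folded procollagen and inhibits no protease. It was at 136 in knockdown 1 and 96.42 in knockdown 2, against 128.29 in the control. The control lay between the knockdown libraries, with log2 differences of 0.08 and -0.41 and a limma value of -0.16 (SE 0.305). In a list of 27 collagens and collagen folding partners, 23 were tested and 0 called by limma; 14 were lower in both libraries and 2 higher in both, beside the same 30.4% and 28%, with medians of -0.22 and -0.29. By the same rule its named genes were P4HB, the shared subunit of prolyl hydroxylase, at 522 and 414 against 504 in the control, and the prolyl isomerase PPIB, at 649 and 568 against 589.75. The library with the lowest SERPINH1 was also the one with the lowest P4HB and PPIB, but this did not hold across the list. CRTAP was highest in knockdown 2, at 17.08 in knockdown 1 and 30.18 in knockdown 2 against 20.43 in the control. P3H1 was highest there too, at 6.89 and 10.23 against 8.45, and 7 of the 23 had opposite signs in the knockdown libraries.

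SERPINA1 (alpha-1 antitrypsin), the main plasma inhibitor of neutrophil elastase, was at 3.25 in knockdown 1 and 3.26 in knockdown 2, against 3.51 in the control. Of 9 liver markers, which would accompany a hepatic source of plasma serpins, 5 are in the table and all of these were under 1 in every library, with sums of 0.22 and 0.19 in the knockdown libraries and 0.13 in the control and ALB at 0 throughout. SERPING1, the inhibitor of complement C1, was at 5.61 and 4.71 in the knockdown libraries, against 4.11 in the control, and was higher in both. SERPINF1 (pigment epithelium-derived factor), a secreted serpin that inhibits no protease, was at 1.46 in knockdown 1 and 4.9 in knockdown 2, against 1.85 in the control. Its log2 difference of 1.05 in knockdown 2 was exceeded by 394 genes; this is again the library with CDKN2A at 144.68, and fibroblast markers, another possible source of SERPINF1, summed to 3.99 and 3.95 in the knockdown libraries and 3.67 in the control, with 8 of 9 under 1 in every library and THY1 at 0 throughout.

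Most kallikreins had values near 0 in TE-10. Of the 13, 11 were under 1 in every library and 8 were under 0.5 in every library, including KLK5 at 0.15 and 0.07 in the knockdown libraries and 0.18 in the control and KLK7 at 0.26, 0.34 and 0.31 in the same order, the trypsin-like and chymotrypsin-like enzymes of skin shedding. The exception was KLK10, whose own proteolytic activity is uncertain, at 8.89 in knockdown 1 and 18.8 in knockdown 2, against 7.61 in the control. It was higher in both libraries, by 0.20 and 1.20 on the log2(value + 1) scale, with 297 genes higher by more in knockdown 2. limma gave 0.70 (SE 0.426). Its neighbours on chromosome 19 were KLK9, at 0.2 and 0.07 in the knockdown libraries and 0.1 in the control, and KLK11, at 0.32 and 0.76 against 0.2. KLK8, or neuropsin, was at 0.5 in knockdown 1 and 1 in knockdown 2, against 0.62 in the control, and just reached the level for testing, while SERPINA3 at 0.86 in knockdown 2 just missed it. KLK4, at 0.6 and 0.34 against 0.35, and KLK2, at 0, 0.03 and 0, are known from prostate; of 7 prostate markers 4 were at 1 or more in a library, and the sum was 5.19 and 9.28 in the knockdown libraries and 4.73 in the control.

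The remaining members were low throughout. KLK6, a trypsin-like enzyme, was at 0.78 and 0.82 in the knockdown libraries, against 0.48 in the control, and KLK13 at 0.25 and 0.3, against 0.05. KLK1, the tissue kallikrein that releases kinins, was at 0.11, 0.27 and 0.22 in the same order, KLK14 at 0.19 in all 3, and KLK12 at 0.03, 0 and 0.03. Of the plasma serpins, SERPINC1 (antithrombin) and SERPIND1 (heparin cofactor II) were listed at 0 in both knockdown libraries and at 0.09 and 0.02 in the control, and SERPINA5, the protein C inhibitor, was listed at 0 in all libraries. The hormone carrier SERPINA6, SERPINA10 (protein Z-dependent protease inhibitor), SERPINA12 (vaspin) and SERPINE3 stayed at or under 0.14. No direction is read from values this low, since depth is unknown.

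The other inhibitors and proteases of epithelium bear on which partners the serpins and kallikreins have in these cells. In a list of 25 non-serpin inhibitors 12 were tested and 0 called by limma, 7 were lower in both libraries and 1 higher in both (30.4% and 28% over all genes), and the medians were -0.18 in knockdown 1 and -0.13 in knockdown 2. PI3, or elafin, an elastase inhibitor of squamous epithelium, was at 106 in knockdown 1 and 109 in knockdown 2, against 242.85 in the control, and was the only one of those at 10 or more that was at least 1.5-fold from the control in both libraries in the same direction. Its limma value was -1.17 (SE 0.252, limma adjusted p = 0.99998). SPINK5, which encodes the main inhibitor of KLK5 and KLK7, was at 2.18 and 2.35 in the knockdown libraries, against 2.66 in the control.

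Of 35 other serine proteases and coagulation genes 15 were tested and 0 called by limma, 10 were lower in both libraries and 2 higher in both, with 30.4% and 28% over all genes here and for the lists that follow, and with medians of -0.19 and -0.24. The named genes were PRSS21, or testisin, at 212 and 169.6 in the knockdown libraries against 219 in the control, and TMPRSS4, a membrane-anchored protease, at 35.51 and 46.65 against 48.03. In a list of 21 cysteine, granule and other proteases, only some of which serpins inhibit, 10 were tested and 0 called. Of the tested genes 4 were lower and 4 higher in both, and the medians were 0.02 and -0.11. The named genes were CTSB, at 183 and 181 against 194 in the control, and the aspartic protease CTSD, at 140.23 and 158 against 138. Of 20 kallikrein substrates and protease-activated receptors, 8 were tested and 0 called, 6 were lower and 1 higher in both, and the medians were -0.12 and -0.18. Their named genes were the growth factor precursor GRN, at 116 and 141 against 143 in the control, and TGFB1, at 82.98 and 78.51 against 99.3. The 1 gene higher in both was IGFBP3, at 9.78 and 6 against 2.98. It was under the level of 10 for naming and is given after its values were seen.

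**Figure D3:**
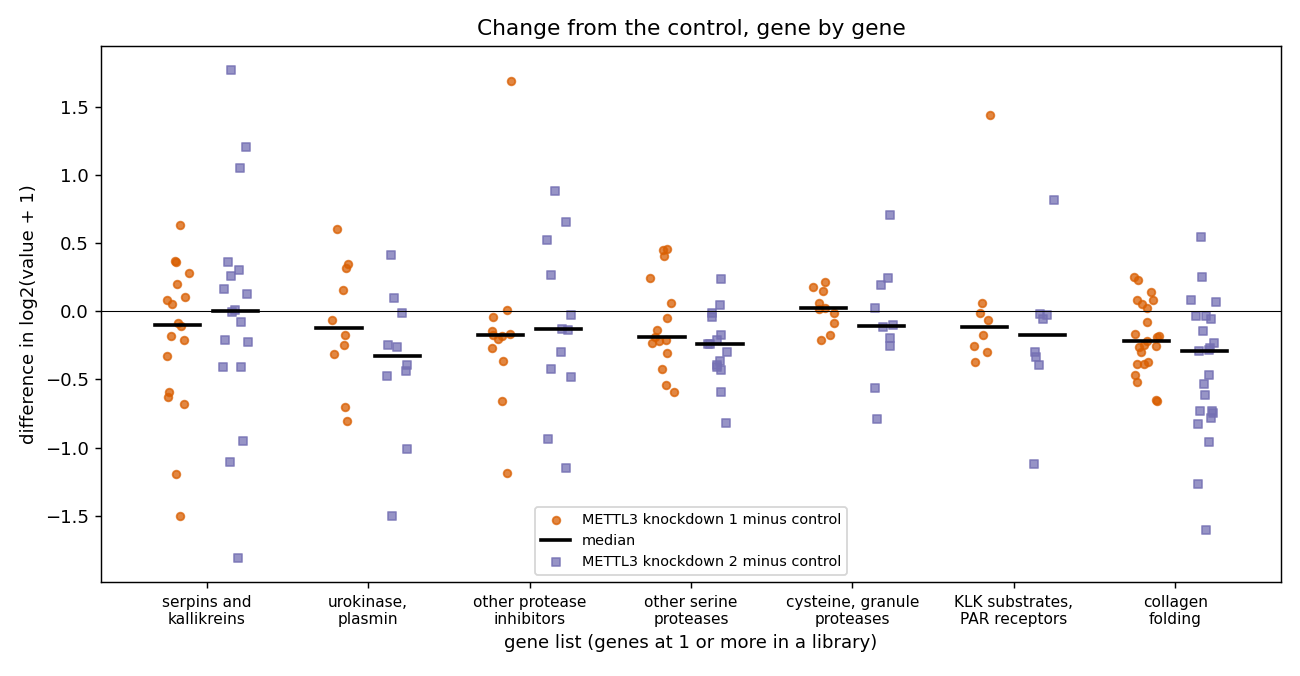
Difference in log2(value + 1) from the control for every tested gene of the serpins and kallikreins and of 6 partner lists, for METTL3 knockdown 1 (circles) and METTL3 knockdown 2 (squares), with the median of each as a bar. The medians of serpins and kallikreins are -0.10 and 0.00, and single members spread from -1.50 to 0.63 in knockdown 1 and from -1.81 to 1.77 in knockdown 2.

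The m6A map of cells with normal METTL3 holds 10 peaks annotated to 9 of the 42 members, of 15940 peaks in all. Of the 18 tested members, 4 had a peak in an exon or untranslated region (UTR), beside 42.4% of the 12375 genes at 1 or more. By level in the control, such a peak was carried by 1 of 8 members from 1 to under 5, beside 46.1% of all genes at that level, by 2 of 5 members from 5 to under 20, beside 48.6%, by 1 of 3 from 20 to under 100, beside 40.3%, and by 0 of 1 at 100 or more, beside 19.4%. Each of these members had a single such peak, as did 61.6% of the genes at 1 or more that had any. The list has no score and does not say whether both immunoprecipitations were pooled, so no peak can be called stronger than another.

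**Figure D4:**
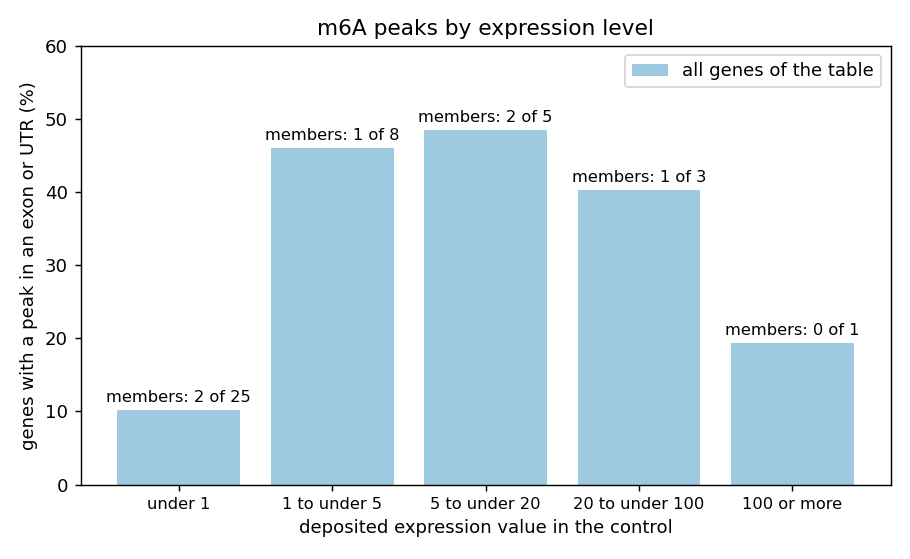
Share of all genes of the expression table with at least 1 m6A peak in an exon or UTR (bars, %), by deposited expression value in the control, with the count of serpins and kallikreins printed above each bar. Bars run from 10.3% under 1 to 48.6% from 5 to under 20, and members with a peak number 2 of 25, 1 of 8, 2 of 5, 1 of 3 and 0 of 1.

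Coordinates of peaks are those of the file. The submitters' processing notes name hg38, but 9 of the 10 peaks lie outside the span of their own gene in GRCh38, so hg38 was not assumed and no sequence was read under them. SERPINB5 had a peak in its coding exons at chr18:61170505-61170815, 26517 bases after the annotated start, and SERPINB13 had one in coding exons at chr18:61264124-61264435, 9746 bases after it. KLK10 had a peak in its 3′ UTR at chr19:51517709-51517987, 5583 bases after the start. SERPINA1 had a peak in its 5′ UTR at chr14:94856836-94857036, 93 bases after the start. These 4 genes had no common course: relative to the control, KLK10 was higher in both knockdown libraries, SERPINA1 was at differences of -0.09 and -0.08 in log2(value + 1), SERPINB13 was low in knockdown 1 alone, and SERPINB5 lay on both sides.

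Of the 24 members under 1 in every library, 2 had an exon or UTR peak. By the value in the control alone, the same 2 of 25 members under 1 had such a peak, beside 10.3% of all genes under 1. KLK7 had one in its 3′ UTR at chr19:51480479-51480678, and SERPINF2, or alpha-2 antiplasmin, at 0.48 and 0.38 in the knockdown libraries and 0.36 in the control, had one in coding exons at chr17:1657596-1657921. Peaks in introns alone were found in 3 members. SERPINH1 had 2, at chr11:75273273-75273508 and chr11:75277237-75277459, the first 290 bases after the start; SERPINB1 had 1 at chr6:2841231-2841734, 599 bases after it, and SERPINB4 had 1 at chr18:61323121-61323332, 5250 bases after it. Of the 10 member peaks 3 thus lay less than 1000 bases after the start, beside 17.5% of all peaks. Of the members at least 2-fold from the control in a knockdown library, SERPINB3, SERPINB6, SERPINB7, SERPINE2 and SERPINF1 had no annotated peak. KLK10 had the one in its 3′ UTR and SERPINB4 the one in an intron. Over all genes at 1 or more, 42.4% had a peak in an exon or UTR. The limit of shared reads given above for SERPINB3 and SERPINB4 holds for their peaks too. Since the peaks come from 1 list of cells with normal METTL3, whether any peak was lost on knockdown was not measured.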

How the data were processed

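Per the submitters' processing notes, reads were aligned with TopHat2 and counted with HTSeq, and peaks were called with MACS2, with hg38 named as the build; the sources used here give neither versions and parameters nor the step that made the expression values. The deposited expression signal per gene has 2 decimals, and the authors name no unit in its header; its columns sum to 617840 in knockdown 1, 627152 in knockdown 2 and 608291 in the control, so depth is unknown. The deposited peak list gives positions, gene, location class and the other per-peak quantity used here, the distance to the annotated start.

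Here, log2(value + 1) of genes at 1 or more in at least 1 library (12375 of 18249) was fitted with limma 3.58.1 (R 4.3.3, trend on) for 2 knockdown libraries against 1 control, with Benjamini-Hochberg adjustment over all genes. The procedure was tested on simulated data with far larger changes than those of the members and an equal, small spread in every library. That test therefore does not show whether differences of the size described here could be called. No count test was used because the table holds no counts. Members at 1 or more were named, and those at 10 or more were given the limma values, as were SERPINB4 and SERPINB7, chosen after their values were seen; so were the members under 1 that are named. A member counted among the 42 is not reported here by name. List genes were named at 10 or more and at least 1.5-fold from the control in both libraries, otherwise the 2 highest by mean. Members, lists and markers were chosen with earlier results of these data known. Python 3.11.15, pandas 2.3.3, numpy 2.4.6 and matplotlib 3.10.9 were used. Alternatives were 3 scalings, a pseudocount of 0.1, no filter, a mean of at least 5, no trend, and leaving out each knockdown library.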

Additional observations from a re-analysis of the deposited data

How the results depend on the processing

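limma called none of the members, and no other gene, under any of 7 alternatives to scaling, pseudocount, filter or trend. At an unadjusted p under 0.05 stood 0 to 2 members, beside 123 to 444 of all genes tested. Without the filter on low values the members were KLK13 and SERPINC1, beside 444 of 18249 genes. Of 193 single-gene values under these alternatives, 192 kept their direction, and SERPINB1 was at 0.0056 under quantile normalization in place of -0.03. The filters and the trend leave a gene's log2 difference unchanged by construction, so only the scalings and the pseudocount could turn a direction. Signs within knockdown 2, which this count leaves out, turned for SERPINB13 under each of the 3 scalings and for SERPINB9 under quantile normalization. Without the filter 12 members were lower in both libraries and 12 higher in both, the added ones being under 1 in every library by construction; with a mean of at least 5 these were 2 and 2, and the median was -0.16. Counting any annotated peak gave 7 members with a peak in place of 4. The share over all genes is not given for these filters or for this count of peaks, so no reading is made of them. Leaving out either knockdown library leaves 1 library against 1 and no test: members at least 2-fold lower were then 2 and 2, at least 2-fold higher 0 to 3, lower 9 to 10 and higher 8 to 9, and the median lay between -0.10 and 0.00. SERPINB6, KLK10, SERPINF1, SERPINB7 and SERPINE2 owe their 2-fold difference to knockdown 2, SERPINB3 and SERPINB4 to knockdown 1. No paired analysis was possible because there is 1 control library. Unknown depth limits every value, above all under 1.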

Other observations

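The partner genes carried m6A peaks as well. The counts below stand beside 42.4% of all genes at 1 or more with a peak in an exon or UTR. In the urokinase and plasmin list 2 of 10 tested genes had a peak in an exon or UTR, PLAU with 1 and PLAT with 2, whereas SERPINE2, which inhibits both, had none. Among the other serine proteases 9 of 15 had such a peak, including PRSS8 and ST14, the membrane-anchored pair that activate each other in epithelium, with 1 each and TMPRSS4 with 2. Among kallikrein substrates and protease-activated receptors 6 of 8 had one, with 2 in F2RL1, the receptor PAR2 that trypsin-like kallikreins cleave, and 4 in DSP, the plaque protein of desmosomes. Among other inhibitors 4 of 12 had one, among cysteine and granule proteases 4 of 10 and among collagen folding genes 8 of 23. These genes were named after their values were seen, and no difference between the lists was tested.

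F2RL1 was at 23.2 in knockdown 1 and 19.72 in knockdown 2, against 26.25 in the control. PRSS8 was at 44.85 and 32.45, against 49.45 in the control, and ST14 at 26.04 and 27.15, against 30.75. All 3 were lower in both knockdown libraries, beside 30.4% of all genes tested, and limma called none of them. In their lists 10 of 15 serine protease genes and 6 of 8 substrates and receptors were lower in both, and 2 and 1 were higher in both. Those higher in both also had an exon or UTR peak, HTRA1 with 1, TMPRSS13 with 2 and IGFBP3 with 2.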
